A study of Mus musculus with 6 samples.

Results

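The transcripts of 10 chemokines, Ccl2, Ccl7, Ccl8, Ccl20, Cxcl1, Cxcl2, Cxcl5, Cxcl12, Cxcl16 and Cx3cl1, were followed in differentiating cultures of C2C12, an established mouse myoblast line whose cells fuse into myotubes when serum is lowered. They were chosen by gene symbol and are 10 of the 19505 genes measured, each read by the probe set with the highest mean signal. Expression was measured on 6 Clariom S mouse arrays, 2 per group, with RNA taken on day 3 of differentiation in 2% horse serum. The first group, MyoD + Dox, held cells transduced with a lentivirus in which doxycycline switches on the myogenic transcription factor MyoD (pLVX-TetON-MyoD), selected with blasticidin and given doxycycline. The second group, uninduced, held the same transduced and selected cells without the drug, and the third, non-transduced, held naive C2C12 cells that met neither virus nor selection but did receive doxycycline. The first pair of groups therefore differs in the drug as well as in MyoD, and the uninduced and non-transduced groups differ in virus, selection and doxycycline together. The labels do not say whether the paired arrays stem from different cultures, and the p-values therefore cover the spread between arrays only, which may be technical. In RNA from whole cultures, fewer cells of a type and less RNA per cell cannot be told apart.

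Chemokines are small secreted or membrane-anchored proteins that draw leukocytes along a gradient by binding receptors coupled to G proteins. Ccl2, Ccl7 and Ccl8 belong to the monocyte chemoattractant family and lie on mouse chromosome 11, whereas Cxcl1, Cxcl2 and Cxcl5 attract neutrophils through Cxcr2 and lie on chromosome 5. Cxcl12 is the ligand of Cxcr4 and guides progenitor cells, including those of muscle, Cxcl16 and Cx3cl1 are made as membrane proteins and released by proteases, and Ccl20 is the ligand of Ccr6. In injured muscle such factors recruit the neutrophils and macrophages that clear debris, and myoblasts are among the cells known to make them. Many chemokine genes are transcribed through NF-kB, a factor activated by inflammatory signals.

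The 250 bases before the start of transcription were found for 6 of the 10 genes in the RefSeq table of promoters (build GRCm38.p6), and 5 are shown, all read on the plus strand, because they set 4 genes with signal above background beside Cxcl2, a close relative of Cxcl1 that stayed at background. Capitals mark the NF-kB consensus, the TATA box TATAAA, the E-box CAGCTG that MyoD prefers and the GC box GGGCGG, each searched on both strands, so that CCGCCC is a GC box on the other strand. The windows are chr5:90890995-90891244 for Cxcl1, chr5:90903649-90903898 for Cxcl2, chr11:82114935-82115184 for Ccl8, chr6:117168285-117168534 for Cxcl12 and chr8:94771930-94772179 for Cx3cl1.
Cxcl1: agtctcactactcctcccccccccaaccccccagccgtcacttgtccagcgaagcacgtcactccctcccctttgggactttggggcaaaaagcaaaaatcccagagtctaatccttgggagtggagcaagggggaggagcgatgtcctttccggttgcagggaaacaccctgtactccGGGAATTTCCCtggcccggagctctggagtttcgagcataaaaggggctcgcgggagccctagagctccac
Cxcl2: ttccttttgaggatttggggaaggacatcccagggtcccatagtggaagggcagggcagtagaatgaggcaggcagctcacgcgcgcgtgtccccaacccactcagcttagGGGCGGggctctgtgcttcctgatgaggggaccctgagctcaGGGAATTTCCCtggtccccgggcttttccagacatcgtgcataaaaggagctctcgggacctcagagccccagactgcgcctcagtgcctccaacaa
Ccl8: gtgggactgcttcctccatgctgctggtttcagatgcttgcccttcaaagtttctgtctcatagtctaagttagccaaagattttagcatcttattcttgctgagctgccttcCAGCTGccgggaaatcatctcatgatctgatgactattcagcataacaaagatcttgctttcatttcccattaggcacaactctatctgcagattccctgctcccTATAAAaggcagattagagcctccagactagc
Cxcl12: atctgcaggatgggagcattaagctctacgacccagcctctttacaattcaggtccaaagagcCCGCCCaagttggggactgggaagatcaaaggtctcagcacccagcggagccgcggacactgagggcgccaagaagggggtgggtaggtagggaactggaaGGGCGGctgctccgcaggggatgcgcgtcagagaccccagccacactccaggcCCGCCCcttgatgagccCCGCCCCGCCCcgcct
Cx3cl1: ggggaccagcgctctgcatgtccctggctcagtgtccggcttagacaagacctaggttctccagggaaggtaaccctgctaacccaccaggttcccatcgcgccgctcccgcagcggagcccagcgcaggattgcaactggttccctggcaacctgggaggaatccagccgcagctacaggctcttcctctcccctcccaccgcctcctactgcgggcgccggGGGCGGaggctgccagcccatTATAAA
The Cxcl1 and Cxcl2 windows shared a run of 14 bases, gggaatttccctgg, which holds the NF-kB consensus on both strands and begins 71 bases before the start in Cxcl1 and 97 bases before it in Cxcl2. The third window with this consensus was that of Ccl20, 80 to 71 bases before the start, and none was found in the windows of Ccl8, Cxcl12 and Cx3cl1. Among all 32851 promoter windows of this length, 7.25% held the NF-kB consensus. The Ccl8 window was the only one of the 6 with CAGCTG, 137 to 132 bases before the start, a motif present in 13% of all windows, and it held a TATA box at 32 to 27 bases, present in 12.4%. Cxcl12 held 5 GC boxes, of which the last pair overlap by 1 base, and a GC box was present in 32.7% of all windows. The TATAAA marked in Cx3cl1 lay 6 to 1 bases before the start, directly beside it, unlike that of Ccl8. A match in these letters is a description of the window and not a bound site. Ccl2, Ccl7, Cxcl5 and Cxcl16 were not found in the table.

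Myod1 itself had log2 signals of 11.51 and 12.54 on the MyoD + Dox arrays, 8.996 and 7.91 on the uninduced arrays and 8.72 and 10.68 on the non-transduced arrays, which placed both induced arrays above the other 4. All 10 skeletal muscle markers (Myod1, Myf5, Myog, Des, Myh3, Actc1, Ckm, Tnnt3, Mymk and Acta1) were above background on all 6 arrays, where background is the 90th percentile of 23 control probe sets, a log2 signal of 6.01 to 6.15. Between 48% and 48.9% of genes lay above it on each array. The second non-transduced array stood apart: 15% of genes differed at least 2-fold between the 2 non-transduced arrays, against 3.02% between the MyoD + Dox arrays and 3.79% between the uninduced arrays. The comparisons of the chemokines with non-transduced cells are given with and without it.

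Of the 10 chemokines, 9 were above background on both MyoD + Dox arrays and on both uninduced arrays, 8 on the first non-transduced array and 3 on the second. Cxcl12, Cxcl16 and Cx3cl1 were above background on all 6 arrays, Ccl2, Ccl7, Ccl8, Cxcl1 and Cxcl5 on all but the second non-transduced array, and Cxcl2 on none. Ccl20 was above it on the MyoD + Dox and uninduced arrays by at most 0.32 on the log2 scale, and on neither non-transduced array. For each of the 8 genes other than Ccl20 and Cxcl2, the second non-transduced array held the lowest signal and the second MyoD + Dox array the next lowest. The highest signal was on the second uninduced array for Ccl7, Cxcl1, Cxcl5, Cxcl12 and Cx3cl1, and on the first non-transduced array for Ccl2, Ccl8 and Cxcl16. Signals are compared below between arrays for 1 gene at a time, since probe sets of different genes are not calibrated against each other.

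**Figure D1:**
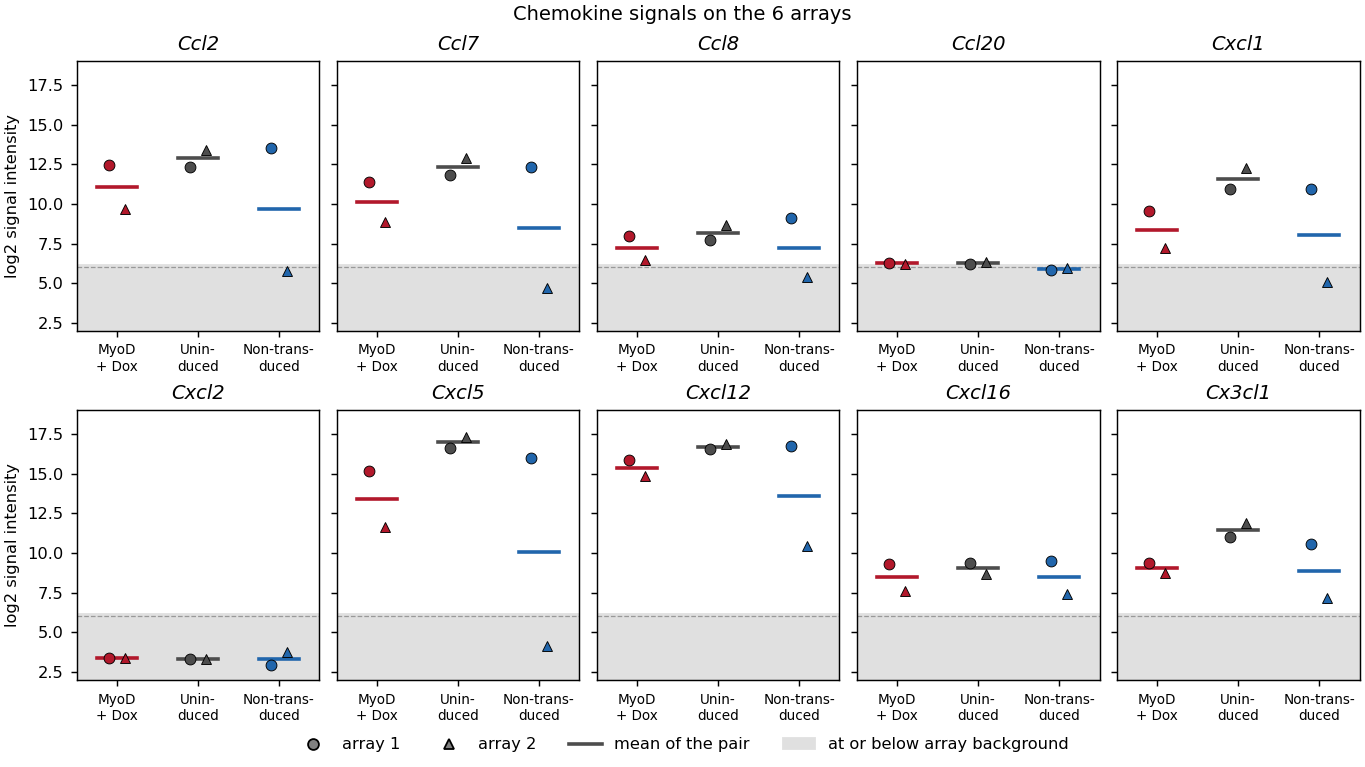
Log2 signal intensity (vertical axis) of the 10 chemokines on the 6 arrays, by group (horizontal axis); circles are the first array of a group, triangles the second, bars the mean of the pair, the shading reaches up to the highest array background and the dashed line marks the lowest. The second non-transduced array lies lowest for 8 of the 10 genes, and Cxcl2 lies inside the shading on every array.

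Ccl2, the founding monocyte attractant and ligand of Ccr2, had log2 signals of 12.47 and 9.70 on the MyoD + Dox arrays, 12.33 and 13.41 on the uninduced arrays and 13.52 and 5.79 on the non-transduced arrays. The induced and uninduced arrays overlapped, and the last value was below background. It averaged 11.08 ± 1.96 in MyoD + Dox, 12.87 ± 0.76 in uninduced and 9.66 ± 5.47 in non-transduced cells (SD, n = 2 each). Ccl7, a related monocyte attractant, had 11.37 and 8.88 in MyoD + Dox, 11.80 and 12.90 in uninduced and 12.32 and 4.66 in non-transduced cells, so that both induced arrays lay below both uninduced ones. Ccl8, which in mouse is a ligand of Ccr8, had 7.99 and 6.48 in MyoD + Dox, 7.71 and 8.64 in uninduced and 9.08 and 5.41 in non-transduced cells. Its induced and uninduced arrays overlapped, and like Ccl2 and Ccl7 it was below background on the second non-transduced array.

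Cxcl5, a neutrophil attractant, had the widest range of the 10 genes between arrays. Its log2 signals were 15.17 and 11.66 on the MyoD + Dox arrays, 16.61 and 17.34 on the uninduced arrays and 16.01 and 4.17 on the non-transduced arrays, the last below background. Both induced arrays were lower than both uninduced ones and lower than the first non-transduced array. Cxcl1, another ligand of Cxcr2, also had both induced arrays below the uninduced pair, with 9.53 and 7.19 in MyoD + Dox, 10.91 and 12.23 in uninduced and 10.96 and 5.08 in non-transduced cells. Cxcl2, its close relative, was not above background on any array, with signals of 2.93 to 3.75. Its promoter window carries the same run of 14 bases as that of Cxcl1, and the part of that run in either signal was not tested. Ccl20, which attracts dendritic cells and lymphocytes, lay at 6.26 and 6.23 in MyoD + Dox, 6.21 and 6.35 in uninduced and 5.86 and 5.98 in non-transduced cells, close to background throughout.

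Cxcl12 was measured on every array, with log2 signals of 15.85 and 14.84 in MyoD + Dox, 16.55 and 16.87 in uninduced and 16.74 and 10.45 in non-transduced cells. The 2 induced arrays were below the other arrays except the second non-transduced one. Cx3cl1, also called fractalkine, had 9.37 and 8.72 in MyoD + Dox, 10.998 and 11.92 in uninduced and 10.58 and 7.15 in non-transduced cells, and its 2 induced arrays lay 0.65 apart, the closest pair among the 8 genes measured on at least 5 arrays. Cxcl16, the membrane-anchored ligand of Cxcr6, had 9.32 and 7.60 in MyoD + Dox, 9.37 and 8.70 in uninduced and 9.4997 and 7.44 in non-transduced cells. Its groups overlapped throughout, with the second array the lower one in all 3.

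The comparison of MyoD + Dox with uninduced cells set the same transduced cells side by side with and without doxycycline. MyoD and the drug differ together here and cannot be told apart. Folds here are taken from differences in mean log2 signal. By that measure Cxcl5 was 11.8-fold lower in MyoD + Dox cells, Cxcl1 9.25-fold lower and Cx3cl1 5.32-fold lower. Ccl7 was 4.66-fold, Ccl2 3.45-fold, Cxcl12 2.57-fold, Ccl8 1.92-fold and Cxcl16 1.49-fold lower, and Ccl20, near background, differed by -0.03 on the log2 scale. Of the 10 members, 0 passed the adjusted threshold of 0.05 in limma, against 0% of all genes, and 0 passed an unadjusted p of 0.05 in either direction, against 3.19% of genes lower and 4.22% higher. For Cx3cl1 the log2 difference was -2.41 (standard error 1.08, 95% interval -5.07 to 0.25, adjusted p = 0.680 in limma). For Cxcl1 it was -3.21 (standard error 1.91, adjusted p = 0.696) and for Cxcl5 -3.55 (standard error 3.65, adjusted p = 0.795). The induced arrays lay below the uninduced ones without overlap for 5 of the 10, Ccl7, Cxcl1, Cxcl5, Cxcl12 and Cx3cl1, as did 24.8% of all genes. The median log2 difference of the members was -1.57, beside -0.01 for all genes.

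The spread in that fit is shared by all 6 arrays and takes in the distance between the 2 non-transduced arrays. With the 4 MyoD + Dox and uninduced arrays alone, the standard error was 0.37 for Cx3cl1, 0.36 for Cxcl12, 0.78 for Cxcl1, 0.79 for Ccl7 and 1.03 for Cxcl5. These 5 genes were then lower in MyoD + Dox cells at an unadjusted p under 0.05, against 8.24% of all genes lower at that level. The unadjusted limma p was 0.000506 for Cx3cl1, 0.00555 for Cxcl1, 0.00781 for Cxcl12, 0.0123 for Cxcl5 and 0.0288 for Ccl7, and 0 members passed after adjustment, Cx3cl1 coming nearest with an adjusted p of 0.0701. Leaving out the second MyoD + Dox array brought the log2 difference to -1.80 for Cxcl5, -2.04 for Cxcl1, -0.98 for Ccl7, -0.40 for Ccl2, -0.86 for Cxcl12, -0.18 for Ccl8 and 0.29 for Cxcl16. Leaving out the first brought it to -5.31 for Cxcl5, -4.38 for Cxcl1, -3.46 for Ccl7, -3.17 for Ccl2, -1.87 for Cxcl12, -1.70 for Ccl8 and -1.43 for Cxcl16, whereas that of Cx3cl1 stayed between -2.87 and -1.95 whichever MyoD + Dox or uninduced array was left out.

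**Figure D2:**
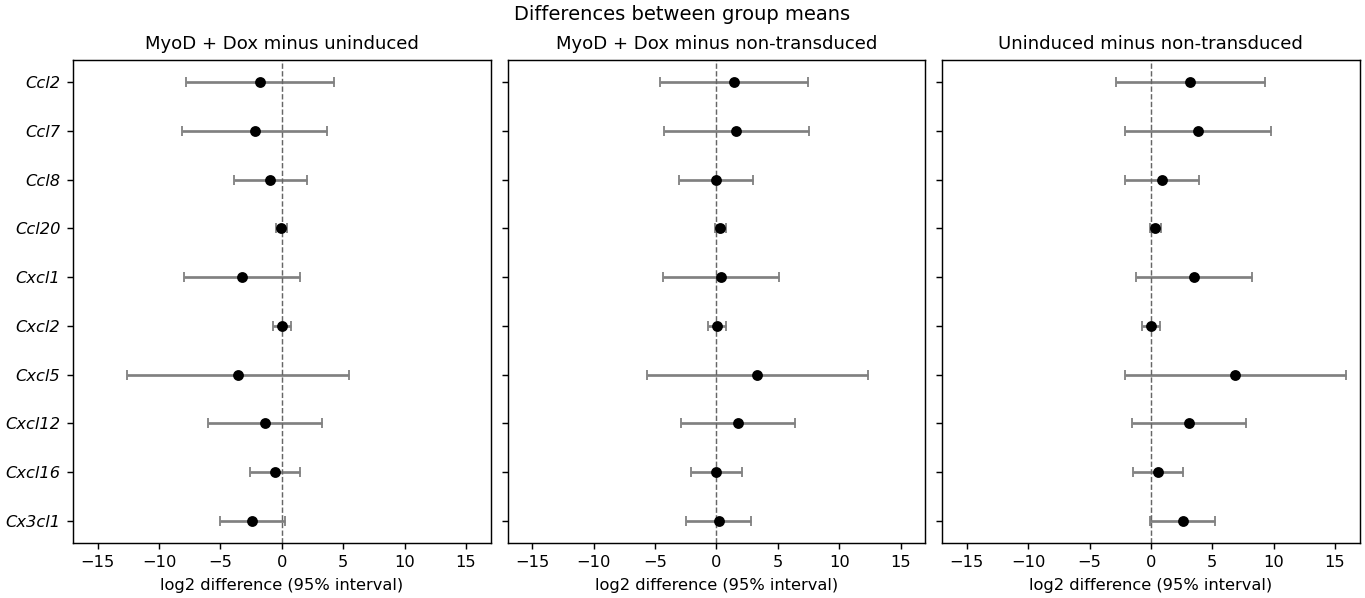
Log2 difference between group means (horizontal axis) of the 10 chemokines (vertical axis) in the 3 comparisons; points are limma estimates over all 6 arrays and bars their 95% intervals, with signals below background entered as measured. Every interval includes 0, and that of Cx3cl1 in MyoD + Dox minus uninduced runs from -5.07 to 0.25.

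The comparison of MyoD + Dox with non-transduced cells set 2 groups that both received doxycycline side by side. For the 8 genes measured on at least 5 arrays the sign of the difference depended on which non-transduced array was kept. Differences in mean log2 signal over both arrays were 1.76 for Cxcl12, 0.18 for Cx3cl1 and -0.01 for Cxcl16, the genes measured on all 6 arrays. For Ccl2, Ccl7, Ccl8, Cxcl1 and Cxcl5, which only the first non-transduced array measured, the second was set to its background, which makes the difference a lower bound, at least 2.36 for Cxcl5, 1.27 for Ccl2, 0.92 for Ccl7, -0.17 for Cxcl1 and -0.36 for Ccl8. Of the 10 members, 0 passed the adjusted threshold in limma (0% of all genes, every adjusted p at 0.99998), and 0 passed at an unadjusted p of 0.05, against 1.34% of genes lower and 1.6% higher. Without the second non-transduced array the differences were -2.60 for Cxcl1, -2.59 for Cxcl5, -2.44 for Ccl2, -2.19 for Ccl7, -1.84 for Ccl8, -1.53 for Cx3cl1, -1.39 for Cxcl12 and -1.04 for Cxcl16, and 4 of them, Ccl8, Cxcl1, Cxcl12 and Cx3cl1, lay below an unadjusted p of 0.05, against 4.58% of all genes lower in that fit. Without the first, the differences were 4.90 for Cxcl12, 1.89 for Cx3cl1 and 1.02 for Cxcl16. They were at least 7.32 for Cxcl5, 4.98 for Ccl2, 4.03 for Ccl7, 2.26 for Cxcl1 and 1.13 for Ccl8. These bounds set the second array to its background. The limma fit without the first array took signals below background as measured instead, which gave 9.25 for Cxcl5. That fit rests on the second non-transduced array alone, where Cxcl5 was below background. In that fit 2 members, Cxcl5 and Cxcl12, passed the adjusted threshold, against 0.533% of all genes higher, and 7 lay below an unadjusted p of 0.05, against 7.55%. Ccl20 was the 1 gene whose MyoD + Dox arrays lay above both non-transduced arrays, as did those of 13.9% of genes, and since neither non-transduced array was above background it was at least 1.14-fold higher (adjusted p = 0.99998).

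The comparison of uninduced with non-transduced cells asked whether the chemokine signals differed without induction, in cells that carried the virus but had not met the drug. The difference in mean log2 signal was 3.12 for Cxcl12, 2.59 for Cx3cl1 (standard error 1.08, adjusted p = 0.637 in limma) and 0.56 for Cxcl16. With the second non-transduced array at its background it was at least 5.92 for Cxcl5, 3.14 for Ccl7, 3.06 for Ccl2, 3.04 for Cxcl1 and 0.58 for Ccl8, and Ccl20, not above background on either non-transduced array, was at least 1.17-fold higher. Again 0 of 10 passed the adjusted threshold (0% of genes) and 0 an unadjusted p of 0.05, against 3.12% of genes lower and 3.11% higher. The uninduced arrays lay above both non-transduced arrays for Ccl20, Cxcl5 and Cx3cl1, as for 19.2% of all genes. These differences were smaller or of the other sign without the second non-transduced array, at 0.96 for Cxcl5, 0.88 for Cx3cl1, 0.61 for Cxcl1, 0.028 for Ccl7, -0.025 for Cxcl12, -0.47 for Cxcl16, -0.66 for Ccl2 and -0.91 for Ccl8, and 0 members passed the adjusted threshold (0% of genes). Without the first array 7 members passed it, Ccl2, Ccl7, Ccl8, Cxcl1, Cxcl5, Cxcl12 and Cx3cl1, against 6.15% of all genes higher (12.7% at an unadjusted p of 0.05, with the same 7 members), a call that rests on the second array alone, where 5 of the 7 were below background. A test of the 3 group means together called 0 of 10 (0% of genes), the lowest adjusted p among them being 0.789. Without the first non-transduced array it called 6, against 6.5% of genes. These comparisons share arrays and are not independent of each other.

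Much of the spread lay between arrays of 1 group. Between the non-transduced arrays all 8 genes measured on at least 5 arrays were higher on the first by more than 2-fold. For Ccl2, Ccl7, Ccl8, Cxcl1 and Cxcl5 that direction follows from lying above background on the first array and below it on the second. A gap of 2-fold was reached by 15% of all genes. That share, like those given below for the other pairs, counts both directions and includes dim genes. Cxcl5 was at least 962-fold higher on the first than on the second, Ccl2 at least 172-fold, Ccl7 at least 74.4-fold, Cxcl1 at least 29.1-fold and Ccl8 at least 7.89-fold, since the second array was below background for these. Cxcl12, measured on both, differed 78.1-fold, the gap ranking 8 among 9034 genes above background on both arrays, and Cx3cl1 differed 10.8-fold.

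The MyoD + Dox pair showed a gap of the same direction. All 8 genes were higher on the first array, 7 of them at least 2-fold, a gap that 3.02% of all genes reached. Cxcl5 differed 11.4-fold, ranking 6 among 9161 genes above background on both arrays, Ccl2 6.84-fold, Ccl7 5.61-fold and Cxcl1 5.05-fold, while Cx3cl1 differed 1.56-fold and ranked 1102. Between the uninduced arrays 7 of the 8 were higher on the second, and 3 of them at least 2-fold, Cxcl1 by 2.503-fold, Ccl7 by 2.14-fold and Ccl2 by 2.11-fold, against 3.79% of all genes.

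The mean of the muscle markers ran the other way across the arrays. The mean log2 signal of the 10 skeletal muscle markers was 14.73 and 14.83 in MyoD + Dox, 13.66 and 11.72 in uninduced and 13.64 and 15.54 in non-transduced cells, so that the array with the least chemokine signal had the highest marker mean. This mean includes Myod1, the gene carried by the virus. Not every marker followed the mean. Myf5 had 8.08 and 7.89 in MyoD + Dox, 10.28 and 9.39 in uninduced and 9.48 and 9.14 in non-transduced cells. Both of its induced arrays thus lay below all others. Of the 15 pairs of arrays, Ccl7, Cxcl1 and Cxcl12 had the lower signal on the array with the higher marker mean in all 15, Cxcl5 and Cx3cl1 in 14, Ccl2 and Ccl8 in 13 and Cxcl16 in 12. Ccl20 did so in 9 and Cxcl2, which was at background throughout, in 2. This is a description over 6 arrays that share 3 treatments, and the part of differentiation in the chemokine signals was not tested. The 15 pairs reuse the same 6 arrays and are not independent. Such counts were not made for all genes, so the order is not shown to be particular to the chemokines.

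**Figure D3:**
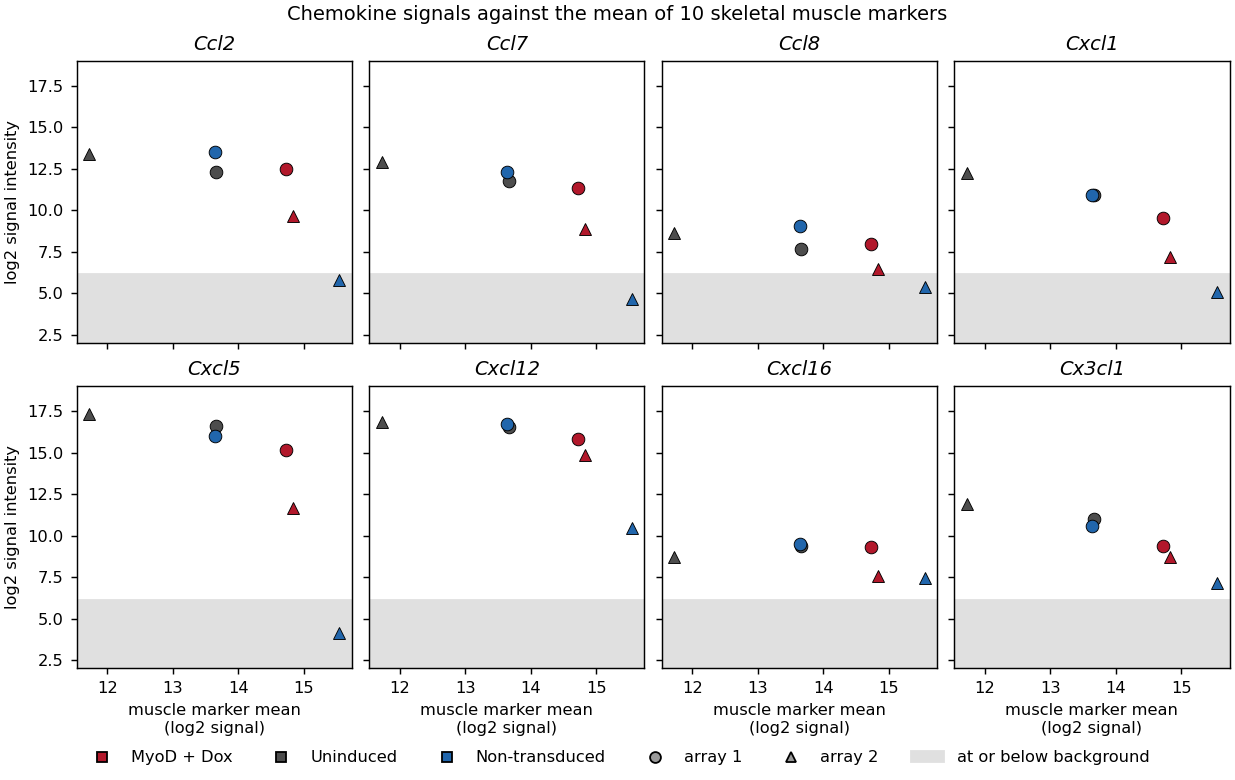
Log2 signal (vertical axis) of the 8 chemokines measured on at least 5 arrays against the mean log2 signal of 10 skeletal muscle markers (horizontal axis); 1 point per array, coloured by group, circles for the first array of a group, triangles for the second, and shading up to the highest array background. The second non-transduced array has the highest marker mean, 15.54, and the lowest signal of each gene, and the second uninduced array has the lowest marker mean, 11.72.

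Leukocytes are the usual bearers of chemokine receptors and a further source of the ligands. Of the macrophage markers measured, 8 of 9 were above background on no array, Adgre1, Csf1r and Ptprc among them, and the exception, Cd14, had log2 signals of 6.53 and 6.73 in MyoD + Dox, 7.86 and 7.96 in uninduced and 7.78 and 6.22 in non-transduced cells. All 5 neutrophil markers and all 7 endothelial markers were above background on no array. Of 6 fibroblast markers, some of which myoblasts also express, Pi16 and Thy1 were never above background and Dcn, Col1a1 and Col3a1 always were. The mean of the 6 was 9.25 and 7.87 in MyoD + Dox, 10.35 and 9.95 in uninduced and 10.20 and 7.53 in non-transduced cells. Dcn, the matrix proteoglycan decorin, had 15.23 and 9.46 in MyoD + Dox, 17.88 and 17.90 in uninduced and 17.31 and 7.15 in non-transduced cells, so that its lowest arrays were those on which the chemokines were lowest. Col3a1 and Lum were also lowest on the second MyoD + Dox and second non-transduced arrays. Their signals there were 15.31 and 13.91 for Col3a1 and 5.52 and 4.67, below background, for Lum. Col1a1, a collagen chain, ran otherwise, with 9.92 and 10.23 in MyoD + Dox, 10.38 and 8.92 in uninduced and 10.40 and 11.79 in non-transduced cells. Its highest signal was on the second non-transduced array. Of 5 adipocyte markers 4 were above background on no array, and the exception was Pparg. The part of these cells in the chemokine signals was not tested.

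Of 28 other chemokine genes, 17 were above background on no array and 3 on all 6. Ccl11, eotaxin, which attracts eosinophils, had log2 signals of 8.27 and 6.42 in MyoD + Dox, 9.30 and 10.10 in uninduced and 8.33 and 5.63 in non-transduced cells, a difference of -2.36 (adjusted p = 0.677) between induced and uninduced cells. Ccl5, which attracts T cells, was above background on the 2 uninduced arrays alone, at 6.46 and 7.90, and Ccl9 and Ccl25 differed by -0.88 and -0.13. In this list 0 passed the adjusted threshold in any comparison. At an unadjusted p of 0.05 there were 3 lower in MyoD + Dox than in uninduced cells, against 3.19% of all genes. There were 4 higher in uninduced than in non-transduced cells, against 3.11% of all genes. Of these, Cxcl15 and Ppbp were above background on no array. The median log2 difference between MyoD + Dox and uninduced cells was -0.11.

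Of 22 chemokine receptors measured, 18 were above background on no array, including Ccr2, Ccr6, Ccr8, Cxcr2, Cxcr6 and Cx3cr1, the receptors of ligands above, which are named here after their values were seen. Cxcr4, the receptor of Cxcl12, was the 1 receptor above background on all 6 arrays. Its log2 signals were 9.99 and 11.16 in MyoD + Dox, 9.12 and 8.90 in uninduced and 9.05 and 8.67 in non-transduced cells, with both induced arrays above the other 4. The log2 difference was 1.56 against uninduced cells (standard error 0.41, adjusted p = 0.670 in limma) and 1.72 against non-transduced cells (standard error 0.41, adjusted p = 0.99998), the reverse in sign of the Cxcl12 difference from uninduced cells. Cxcr4 was the 1 receptor at an unadjusted p of 0.05 in each of these comparisons, against 4.22% and 1.6% of all genes higher. Between uninduced and non-transduced cells the 1 receptor at that level was Ackr4, higher by 1.24, against 3.11% of all genes higher. Ackr4 was above background on 1 array only. After adjustment 0 receptors passed the threshold. Ackr3, the decoy receptor of Cxcl12, differed by 0.07 and Ccr7 by 0.05 between MyoD + Dox and uninduced cells.

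Among 18 NF-kB genes measured, 13 were above background on all 6 arrays, 0 passed the adjusted threshold, and the median log2 difference between MyoD + Dox and uninduced cells was -0.14. Nfkbia, the inhibitor IkB alpha and itself a target of NF-kB, had log2 signals of 11.31 and 9.56 in MyoD + Dox, 11.95 and 12.53 in uninduced and 12.11 and 7.81 in non-transduced cells. Vcam1, an adhesion molecule, had 14.25 and 12.73 in MyoD + Dox, 14.73 and 15.11 in uninduced and 15.14 and 9.38 in non-transduced cells. Both had the 2 lowest signals on the arrays where the 8 chemokines were lowest, and the difference between MyoD + Dox and uninduced cells was -1.80 for Nfkbia (adjusted p = 0.737 in limma) and -1.43 for Vcam1 (adjusted p = 0.827). Tnfaip3, a brake on the pathway, differed by 0.85 and Nfkbiz by -0.67, so the values named had both signs. At an unadjusted p of 0.05 the list held 0 genes in either comparison of MyoD + Dox cells and 1, Tnfaip3, lower in uninduced than in non-transduced cells. Of all genes, 3.12% were lower in that last comparison. For MyoD + Dox cells 3.19% were lower and 4.22% higher against uninduced cells, and 1.34% lower and 1.6% higher against non-transduced cells.

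Among 16 inflammatory cytokines and receptors, 6 were above background on no array and 0 passed the adjusted threshold. Il33, an alarmin, had log2 signals of 8.10 and 7.46 in MyoD + Dox, 10.16 and 9.99 in uninduced and 8.27 and 6.05 in non-transduced cells, a difference of -2.30 from uninduced cells (standard error 0.71, adjusted p = 0.670). Lif, a cytokine of the interleukin-6 family that muscle cells make, ran the other way, with 7.47 and 8.34 in MyoD + Dox, 6.39 and 4.97 in uninduced and 6.13 and 8.55 in non-transduced cells, a difference of 2.22 (standard error 0.88, adjusted p = 0.670). These were the 1 lower and the 1 higher gene of the list at an unadjusted p of 0.05 in that comparison, and Il33 was the 1 gene higher at that level in uninduced than in non-transduced cells. The shares of all genes were 3.19% lower and 4.22% higher in the first of these comparisons and 3.11% higher in the second. Il1r1 and Il6ra differed by -1.32 and -0.94. Of 9 genes of chemokine shedding and cleavage, 6 were above background on all 6 arrays. Adam10, the main sheddase of Cxcl16 and Cx3cl1, differed by -0.53 between MyoD + Dox and uninduced cells (adjusted p = 0.682), Mmp2, which cleaves Cxcl12, by -0.95, Mmp14 by -0.92 and Sdc1 by -0.41. The list's median was -0.28, and 0 passed at either level.

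**Figure D4:**
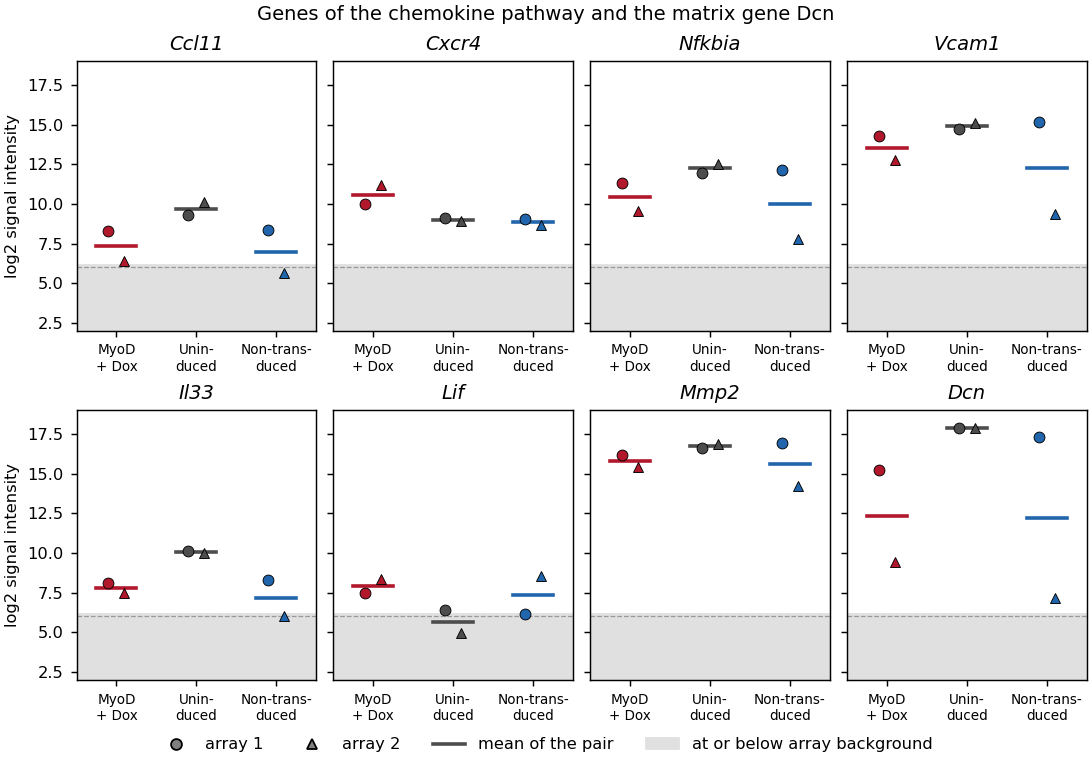
Log2 signal (vertical axis) of 7 genes of the chemokine pathway and of the matrix gene Dcn on the 6 arrays, by group (horizontal axis), with circles for the first array, triangles for the second, bars for the mean of the pair, shading up to the highest array background and a dashed line at the lowest. Nfkbia, Vcam1 and Dcn are lowest on the second non-transduced array, and Cxcr4 is highest on the 2 MyoD + Dox arrays.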

How the data were processed

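RNA of differentiated C2C12 cells was hybridised to 6 Clariom S mouse arrays with the GeneChip 3' IVT Pico kit. RNA was extracted with Trizol per the labels and with the RNeasy kit per the paper's methods. The authors deposited 1 table of linear signal intensity per probe set, already normalized between arrays. Affymetrix Expression Console appears in the submitters' processing notes, the methods name Transcriptome Analysis Console with SST-RMA for heat maps, while the setting behind the table and its genome build are not given in sources used here. The normalization was kept and log2 of the intensity was taken. Of 28846 probe sets, 19572 carried 1 gene symbol in the platform annotation, and keeping the probe set with the highest mean left 19505 genes, with no filter on dim genes. Columns of 0 other samples were left out.

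Groups came from the labels. limma 3.58.1 in R 4.3.3 (lmFit and eBayes, two-sided) was fitted to all 6 arrays with 3 residual degrees of freedom, in 3 comparisons and an F test, with p-values adjusted by Benjamini-Hochberg across the 19505 genes and called at 0.05. An exact permutation test of 2 arrays against 2 cannot go below p = 0.333 and was not used. Counts at an unadjusted p are descriptions. An "at least" fold sets the brighter value against the array background. The chemokines, gene lists and tests were chosen with earlier results of these data known. Named genes were Myod1, the 10 chemokines and, in each related list, members past the adjusted threshold or else up to 4 with the largest difference between MyoD + Dox and uninduced cells among those above background on all arrays of a group. Other genes were named once their values were known. Alternatives tried were a fit to only the 4 arrays compared, the methods' t-test, a block for the replicate number, array medians subtracted, quantile normalization, a floor at the array background, the 40% dimmest genes removed, probe sets of a gene averaged, a trended and robust eBayes, each array left out in turn, and a crossed replicate block added after seeing the data. The steps were tested on simulated data. The number of arrays limits the precision.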

Additional observations from a re-analysis of the deposited data

How the results depend on the processing

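Over all alternatives the log2 difference of a member between MyoD + Dox and uninduced cells kept its sign and its side of the adjusted threshold in 157 results and turned its sign in 2. Against non-transduced cells 143 kept both, 14 turned and 2 came to pass the threshold for MyoD + Dox cells, and 146 kept both, 6 turned and 7 came to pass for uninduced cells.

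Leaving out each array in turn, the number of members past the adjusted threshold ran from 0 to 2 in MyoD + Dox against non-transduced cells, 0 to 7 in uninduced against non-transduced cells and 0 to 6 in the F test, in each case highest without the first non-transduced array, and stayed at 0 in MyoD + Dox against uninduced cells. Fits without 1 array of a group assume that its lone array varies like the others. The F test without that array called 6.5% of all genes. The number at an unadjusted p of 0.05 ran from 0 to 5 in MyoD + Dox against uninduced cells, where leaving out a non-transduced array is the same fit as the 4 arrays alone, and from 0 to 7 in the other 2 comparisons and in the F test. The 7 were found without the first non-transduced array, against 7.55% of all genes higher for MyoD + Dox cells, 12.7% higher for uninduced cells and 22.6% in the F test, and without the second the F test had 4, against 12.4%. Values without the first array set a signal below background as measured for Ccl2, Ccl7, Ccl8, Cxcl1 and Cxcl5. The log2 difference between MyoD + Dox and uninduced cells ran from -1.43 to 0.29 for Cxcl16 and from -0.098 to 0.038 for Ccl20. Between MyoD + Dox and non-transduced cells it ran from -2.44 to 5.30 for Ccl2, -2.19 to 5.46 for Ccl7, -1.84 to 1.82 for Ccl8, -2.60 to 3.28 for Cxcl1, -0.37 to 0.44 for Cxcl2, -2.59 to 9.25 for Cxcl5, -1.39 to 4.90 for Cxcl12, -1.04 to 1.02 for Cxcl16 and -1.53 to 1.89 for Cx3cl1. Between uninduced and non-transduced cells it ran from -0.66 to 7.08 for Ccl2, -0.91 to 2.76 for Ccl8, -0.40 to 0.41 for Cxcl2, -0.025 to 6.26 for Cxcl12 and -0.47 to 1.59 for Cxcl16. The lowest and highest values against non-transduced cells were those without 1 or the other non-transduced array.

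With dim signals set to background, the difference between MyoD + Dox and non-transduced cells was -0.17 for Cxcl1, and that between uninduced and non-transduced cells was -0.027 for Cxcl2, whose signals are then the backgrounds themselves, while 1 member, Ccl20, passed an unadjusted p of 0.05 between uninduced and non-transduced cells. With the 4 arrays of MyoD + Dox and uninduced cells alone 5 members were lower at that level between these groups, against 8.24% of all genes lower. By the methods' t-test 1 member was past the unadjusted threshold in MyoD + Dox against uninduced cells (Cxcl2, at background) and 1 against non-transduced cells (Ccl20), and 0 after Benjamini-Hochberg adjustment. For the floor at background and for the t-test, the share of all genes past the unadjusted threshold was not counted. The labels do not say whether the replicate numbers pair the samples, and 2 arrays per group cannot settle it. Deviations of same-numbered arrays had a correlation of -0.05 between MyoD + Dox and uninduced cells. The correlation was 0.41 between MyoD + Dox and non-transduced cells and -0.34 between uninduced and non-transduced cells. With the replicate block 0 members were called in each comparison. With the crossed replicate block 2 members lay below an unadjusted p of 0.05 between MyoD + Dox and uninduced cells, 4 between uninduced and non-transduced cells and 2 in the F test. The share of all genes below that level was not counted for this block, so these counts say nothing particular about the members. Cxcl2 was lost to the filter on dim genes and has no value there. The cause of these changes was not tested.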

Other observations

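Among the 9034 genes above background on both non-transduced arrays, Dcn had the largest gap between the 2 arrays. It was higher on the first array by 10.16 on the log2 scale, Sfrp2, a secreted Wnt antagonist, by 8.75, the complement protease C1s1 by 7.02 and Kitl, the ligand of Kit, by 6.98, and Cxcl12 ranked 8 with 6.29. Ankrd2, a muscle ankyrin repeat gene, was 6.61 higher on the second array. Its log2 signals were 10.09 and 9.26 in MyoD + Dox, 7.08 and 5.79 in uninduced and 7.49 and 14.10 in non-transduced cells. These genes were named by rank after their values were seen.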
